A study of Macaca mulatta with 64 samples.

Results

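The prefrontal cortex of the rhesus macaque was compared with 2 cortical areas further back, the posterior cingulate and the parietal cortex. The comparison rests on 24 of the 64 bulk RNA libraries of a series on 8 brain regions, chosen by their region label alone: 8 prefrontal, 8 posterior cingulate and 8 parietal. In each region there was 1 library for each combination of age (1, 4, 10 or 20 years) and sex. The 8 combinations are called animal sets here, and each prefrontal library was set against the posterior cingulate and parietal libraries of its own animal set. The animals were 16 healthy, socially housed rhesus macaques, 2 per age and sex, killed with pentobarbital sodium. The labels give no other agent and no genetic change for any group. The sources used here do not say how the RNA of 2 animals became 1 library, so the spread between libraries need not be that between single animals. Small blocks of tissue were taken within an hour of death. Per the labels' protocols the prefrontal block came from the main sulci, the posterior cingulate block from Brodmann area 23, and the parietal block from the middle of the sylvian fissure.

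The prefrontal cortex is association cortex with a large share of intracortical wiring and is among the last cortical areas to be myelinated in primates. Oligodendrocytes wrap axons in myelin, and the RNA of the main myelin proteins is made almost solely by them. Fast-spiking interneurons that hold the calcium buffer parvalbumin, and large neurons with thick, fast axons, share a set of ion channels, neurofilaments and release proteins. Retinoic acid is a vitamin A derivative that helps to set frontal against caudal identity in the developing cortex of mice and primates.

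Markers of excitatory neurons were high in the prefrontal libraries, and the areas themselves are taken from the labels. NRGN (neurogranin, a calmodulin-binding protein of dendritic spines) had a mean of 1561 RPKM (reads scaled to transcript length and library total) in the prefrontal libraries, and the excitatory transporter SLC17A7 had 151 RPKM. Total RPKM ran from 354924 to 489987 and 10645 to 11521 genes reached 1 RPKM. Read depth is unknown, since RPKM values alone were used. The 100 highest genes took 53.1% to 58.1% of prefrontal RPKM, 59.8% to 65.8% of posterior cingulate and 54.6% to 60.8% of parietal RPKM, so the prefrontal and posterior cingulate ranges did not overlap. With animal sets left in, the first principal component (29.3% of the variance) placed the 6 libraries of the 1-year sets lowest, and on the second (20.6%) all 8 prefrontal libraries were positive, as were 3 parietal libraries and 1 posterior cingulate library. Values of 0 need care: 13 of the 462 list genes were listed at 0 in all 24 libraries. Such listings were not tested.

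Differences are given on the log2(RPKM + 1) scale as prefrontal minus the mean of the other 2 areas, with the standard error (SE) of a limma fit over 24 libraries. A gene passed at a Benjamini-Hochberg adjusted p under 0.05, and was called when the difference also reached 1. Of 11585 genes tested, 5428 passed (46.9%), 4770 of them higher in prefrontal cortex (41.2%) and 658 lower (5.68%). The median gene was 0.11 higher, and scaling each library to its median ratio with the other libraries brought that median to 0.00 and the split to 1814 higher (15.7%) and 1785 lower (15.4%). Quantile normalization gave 1955 higher and 1780 lower. A small positive difference is therefore no more than the typical gene showed, and list counts below are given with their count under median-ratio scaling. Each list count is to be read against these shares of all genes, and each list median against 0.11. All lists were put together with earlier results of these data known, so their counts are descriptions. Only 23 genes were called (0.199%), 8 higher (0.0691%) and 15 lower (0.129%). All 23 called genes also passed in the same direction against each of the other areas taken alone, and 16 had a single direction in 8 of 8 animal sets.

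Genes of oligodendrocytes and myelin were lower in the prefrontal cortex. Of the 28 genes on this list 23 were tested; 22 passed as lower and none as higher, against 5.68% lower among all genes, and their median difference was -0.82 beside 0.11 for all genes. Of the 5 untested members 3 were listed at 0 in 24 libraries, PLLP among them, and ENPP6 and TSPAN2 lay below the filter. CD9, a tetraspanin that other cells also make, was the member that did not pass (-0.12), and it passed as lower under median-ratio scaling. Leaving out any single animal set kept 22 or 23 of them lower. In bulk tissue fewer cells of a type and less RNA per cell cannot be told apart.

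MBP encodes myelin basic protein, which holds the layers of myelin together. It lay between 88.3 and 611 RPKM in the prefrontal libraries (median 319), between 391 and 1265 in the posterior cingulate (median 812) and between 237 and 1232 in the parietal libraries (median 847). The ranges overlapped across ages, but in every animal set the prefrontal library was the lowest of the 3. The difference was -1.36 ± 0.13 (SE, n = 8 animal sets, limma adjusted p = 2.2e-07), with -1.39 against the posterior cingulate and -1.32 against the parietal cortex. MOBP, a protein that helps to compact myelin, lay between 4.48 and 15.2 RPKM in prefrontal, 15.4 and 34.4 in posterior cingulate and 13.5 and 42.7 in parietal cortex. Its highest prefrontal library thus lay below every posterior cingulate library, and the difference was -1.31 ± 0.12 (adjusted p = 8.9e-08).

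The other called members covered several parts of the myelin sheath. MOG, an adhesion protein of the outermost myelin layer, had medians of 7.92 RPKM in prefrontal, 16.1 in posterior cingulate and 18.1 in parietal cortex, with a difference of -1.08 ± 0.10 (adjusted p = 1.7e-07). MAG, the adhesion protein between axon and innermost myelin, differed by -1.01 ± 0.11, and ERMN, a cytoskeletal protein of oligodendrocytes, by -1.19 ± 0.10. GJB1, a gap junction protein of oligodendrocytes, and CNDP1, a dipeptidase, both differed by -1.14. NKX6-2, a transcription factor of mature oligodendrocytes, differed by -1.08 ± 0.09 (adjusted p = 6.8e-08). Members at smaller distance were the transferrin gene TF (-0.82), the lipid enzymes UGT8 (-0.65) and FA2H (-0.55), the myelin regulator MYRF (-0.65), CNP (-0.54) and the lineage factor SOX10 (-0.42).

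**Figure D1:**
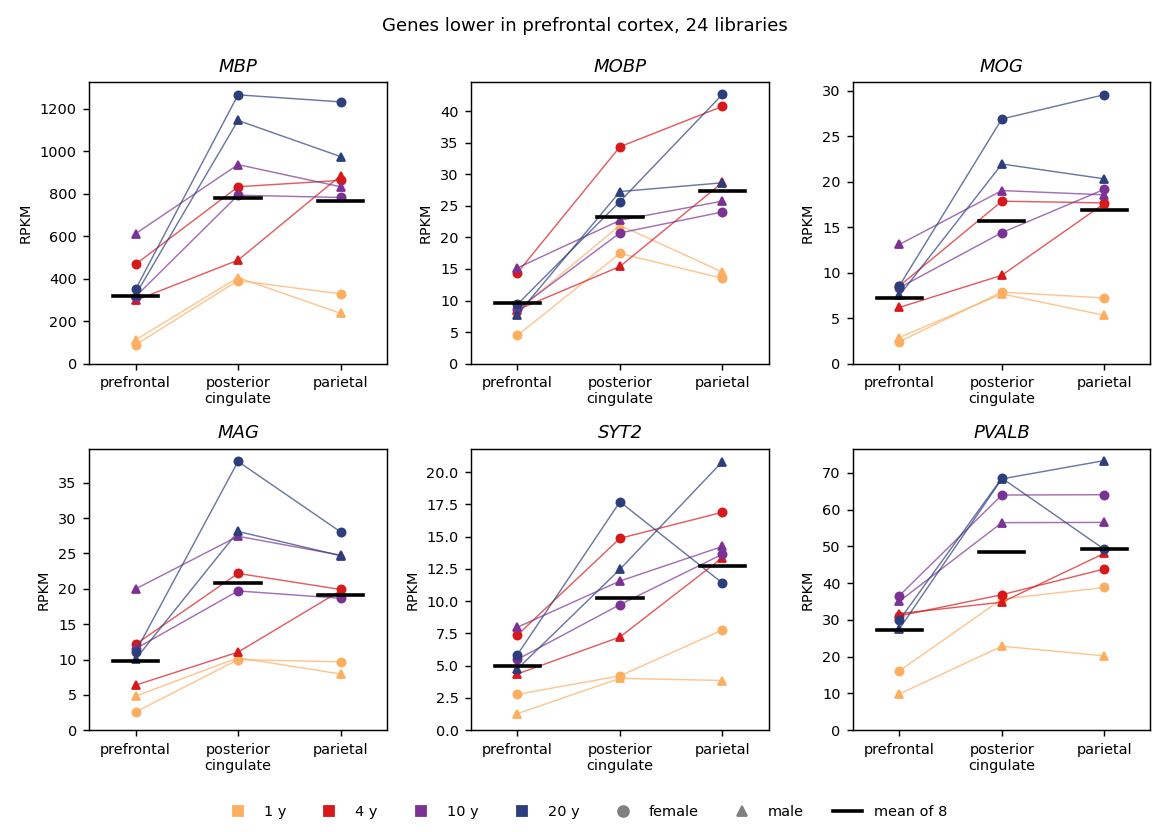
RPKM of 6 genes that were lower in prefrontal cortex, in 24 libraries. The x axis gives the 3 areas and the y axis RPKM from 0; each thin line joins the 3 libraries of an animal set, color marks age, the symbol marks sex and the black bar is the mean of 8 libraries. For MBP the prefrontal library is the lowest of its animal set in each of the 8 sets.

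Genes of the precursors of these cells were mixed. Of 7 tested genes of oligodendrocyte precursors 3 were lower and 1 higher (5 lower and 0 higher under median-ratio scaling). Among all genes 5.68% were lower and 41.2% higher (15.4% and 15.7% under that scaling). BCAS1, a mark of oligodendrocytes that are just starting to make myelin, had -0.86 ± 0.09. OLIG1 and OLIG2, lineage factors present from precursor to mature cell, had -0.23 and -0.25, and PDGFRA, the growth factor receptor of precursors, had 0.22, which did not pass under median-ratio scaling. No test set precursors against mature cells. The listed myelin genes summed to 169 to 867 RPKM in prefrontal libraries, 547 to 1710 in posterior cingulate and 359 to 1691 in parietal libraries. These sums also held the untested ENPP6 and TSPAN2, each at 0.74 RPKM or less. Within animal sets the mean of the other 2 areas was 1.43 to 3.21 times the prefrontal sum, lowest in the 10-year male set and highest in the 20-year female set.

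SPP1 (osteopontin, a secreted protein) lay outside that list and was called lower, with -1.06 ± 0.10 (adjusted p = 1.3e-07). It lay between 8.01 and 23.1 RPKM in prefrontal libraries (median 18.7), against medians of 38.0 in posterior cingulate and 43.3 in parietal cortex. KLK6, a secreted protease of oligodendrocytes, had -1.01 ± 0.10 from a mean of 1.49 RPKM. The remaining called lower genes were SYT2, described next, and 4 that carry an identifier and no name.

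Of 20 genes shared by fast-spiking interneurons and long, fast axons, all of them tested, 12 were lower, 1 was higher and 7 did not pass, against 5.68% lower and 41.2% higher among all genes. Their median was -0.32 beside 0.11 for all genes. Under median-ratio scaling 15 were lower and none higher, against 15.4% lower among all genes. As with the other lists, its members were chosen with earlier results of these data known, so its count is a description.

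SYT2, the fast calcium sensor for transmitter release in parvalbumin interneurons, lay between 1.28 and 7.98 RPKM in prefrontal, 4.02 and 17.7 in posterior cingulate and 3.85 and 20.8 in parietal libraries. The prefrontal value was the lowest of its set in 8 of 8 sets, and the difference was -1.03 ± 0.10 (adjusted p = 3.6e-07). PVALB, parvalbumin itself, had a prefrontal median of 30.5 RPKM (9.87 to 36.6) against 46.7 (22.8 to 68.6) and 48.7 (20.2 to 73.4), a difference of -0.83 ± 0.09 (adjusted p = 1.2e-06). VAMP1, the vesicle protein paired with SYT2 at fast synapses, had -0.85 ± 0.10.

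Among neurofilament genes the heavy and medium subunits passed. NEFH, the heavy neurofilament subunit of thick axons, had a prefrontal median of 58.3 RPKM beside 105 in posterior cingulate and 123 in parietal cortex, and a difference of -0.88 ± 0.14 (adjusted p = 6.2e-05). Its 1-year male set stood at 0.04. The medium subunit NEFM had -0.54, while the light subunit NEFL had -0.07 and did not pass. Among ion channels, the axonal potassium channel KCNA2 had -0.42, and the pore subunits SCN1A and KCNC1 had -0.39 and -0.35. SCN8A, the main sodium channel at nodes of Ranvier, was the member that was higher (0.17), and it did not pass under median-ratio scaling.

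Most other inhibitory markers lay near the typical gene. Of 18 tested genes of inhibitory neurons 7 were higher and 1, PVALB, was lower, with a median of 0.08. Under median-ratio scaling 2 were higher and 3 lower. Among all genes 41.2% were higher and 5.68% lower (15.7% and 15.4% under that scaling). The synthesis enzyme GAD1 had 0.07, the vesicular transporter SLC32A1 0.12, and the peptides SST and VIP 0.09 and 0.06, and none of these 4 passed. PNOC and CCK, peptide precursors of interneurons, were higher by 0.47 and 0.43, and by 0.34 and 0.29 under median-ratio scaling.

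**Figure D2:**
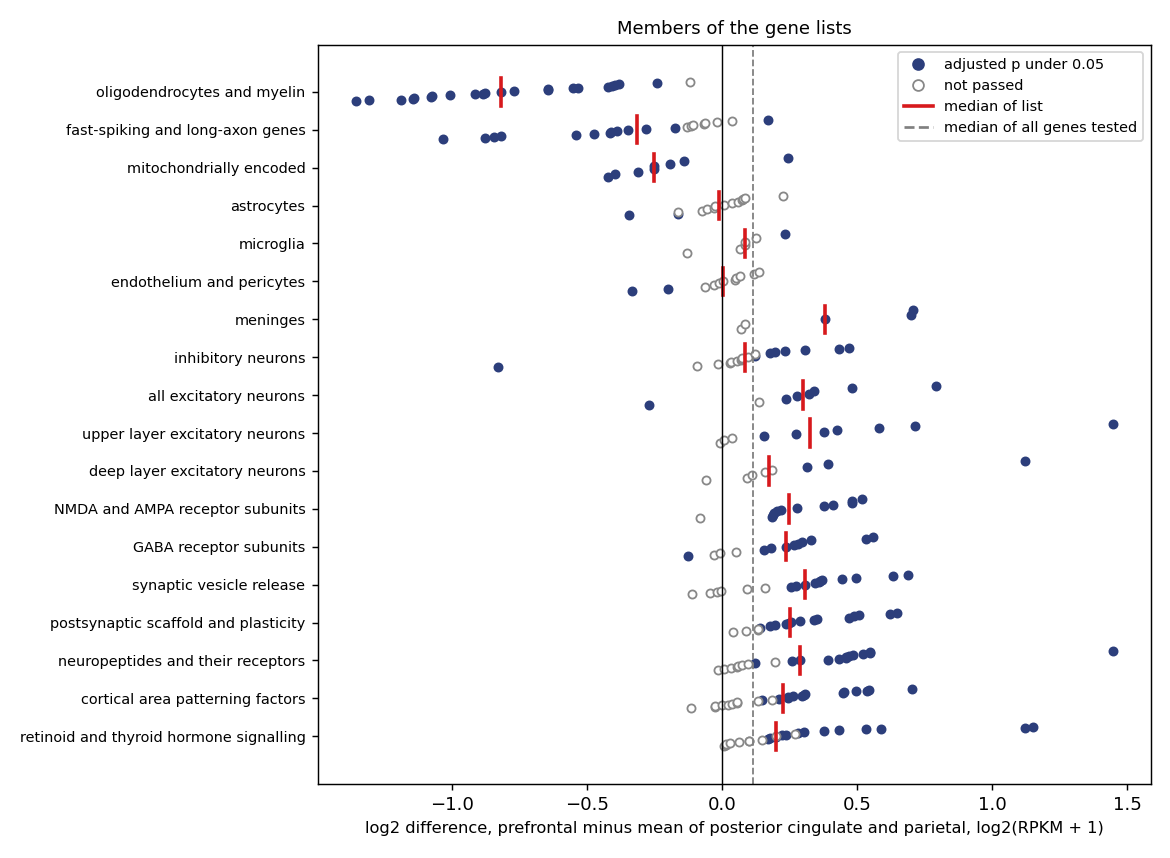
Log2 differences, prefrontal minus the mean of posterior cingulate and parietal cortex, of the tested members of 18 gene lists. Each point is a gene on the x axis in log2(RPKM + 1), filled points passed at an adjusted p under 0.05, red bars are list medians and the dashed line is the median of all genes at 0.11. The myelin list lies furthest to the left, with a median of -0.82.

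Among higher genes with a single direction in 8 animal sets, no value of 0 and a mean of at least 5 RPKM, CRYM had the largest difference. Called genes outside that rule had larger ones, namely MYOC, CARTPT, SFRP2, NOV and CRABP2, and are described further on. CRYM encodes mu-crystallin, a cytosolic protein that binds thyroid hormone. It lay between 65.9 and 94.2 RPKM in the 8 prefrontal libraries (median 78.1), between 19.4 and 47.2 in posterior cingulate (median 30.6) and between 31.7 and 52.5 in parietal libraries (median 43.5). Every prefrontal library was above the other 16. The difference was 1.12 ± 0.07 (adjusted p = 2.0e-09, the smallest of this comparison), and 0.98 under median-ratio scaling. CRYM was also 0.43 lower in posterior cingulate than in parietal cortex (log2 -0.43 ± 0.08, adjusted p = 0.00091), which gave the order prefrontal, parietal, posterior cingulate.

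In all, 37 genes had their 8 prefrontal libraries above the other 16 (0.319% of those tested) and 1 had them below (0.00863%). These ranges are of unscaled RPKM, on which the median gene was 0.11 higher, so 37 against 1 is no balance of directions. Among the 37 were C1QL3, a secreted complement-like protein of synapses, with 7.47 to 9.58 RPKM in prefrontal libraries beside 2.27 to 5.70 and 3.05 to 6.97. Its difference was 0.90 ± 0.09 (adjusted p = 1.7e-07). FAM163B (0.87), PNMA5 (0.86), the guanine deaminase GDA (0.80) and ANKRD6 (0.80) were separated in the same way. CHRNB2, the beta-2 subunit of neuronal nicotinic receptors, lay between 4.00 and 5.56 RPKM beside 1.80 to 3.53 in the others (0.62 ± 0.08, adjusted p = 4.3e-06). The axon guidance genes SLIT1 (0.60) and ROBO1 (0.46), a ligand and its receptor, and CCKBR (0.46), the brain receptor for cholecystokinin, were chosen here after their values were seen. So was NFE2L2, an oxidative stress factor, the gene whose prefrontal libraries all lay below, with means of 10.4 and 13.7 RPKM (-0.35).

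KCNG1, a modifying subunit of potassium channels, had 9.88 RPKM (7.14 to 18.8) beside 4.56 and 3.22, a difference of 0.99 ± 0.09 (adjusted p = 1.1e-07). The highest libraries of the other areas reached into the prefrontal range, and the direction held in 8 of 8 animal sets. NECAB2, a neuronal calcium-binding protein, had 0.95 ± 0.11, the sodium channel subunit SCN3B 0.93 ± 0.10, the synapse organizer NPTX2 0.87 ± 0.11 and the lipid phosphatase-related protein PLPPR4 0.80 ± 0.09. NEUROD6, a transcription factor of excitatory neurons, had a mean of 26.9 RPKM beside means of 15.4 and 15.6 (0.79 ± 0.11). SLC47A1, an organic cation exporter, and C13ORF36 had 0.95 and 0.77.

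Marker genes of cortical layers were uneven. Of 10 tested genes of upper layer excitatory neurons 7 were higher and none lower (5 and none under median-ratio scaling), with a median of 0.32. The shares of all genes were 41.2% higher and 5.68% lower (15.7% and 15.4% under that scaling). CARTPT, the precursor of the CART peptide, had a prefrontal median of 3.93 RPKM (1.81 to 7.99) beside 0.56 (0.16 to 1.55) in posterior cingulate and 0.715 (0.35 to 2.67) in parietal cortex. It was called higher with 1.45 ± 0.14 (adjusted p = 1.7e-07). CARTPT reached 1 RPKM in 8 prefrontal libraries and in 6 of the other 16, so it entered the test (1 RPKM in at least 8 libraries) through the area where it was high, and its call and its place in the list count are no support for the list. GLRA3, a glycine receptor subunit, had 0.58, but at 1 RPKM in 7 prefrontal and 4 other libraries it entered the test as CARTPT did. It is no support for the list either. CALB1, the calcium buffer calbindin, had 0.71 ± 0.10 and the upper layer factor CUX2 0.43, whereas LAMP5, RORB and CUX1 lay between -0.01 and 0.03 and did not pass. For RORB this mean covered opposite differences, 0.34 against the posterior cingulate and -0.32 against the parietal cortex (adjusted p = 0.0068 and 0.015). Of 8 deep layer genes 3 were higher (3 under median-ratio scaling), beside the same shares of all genes, namely CRYM, CTGF (0.39) and SULF2 (0.31). TBR1 (0.19) and TLE4 (-0.06), factors of deep layer neurons, did not pass.

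**Figure D3:**
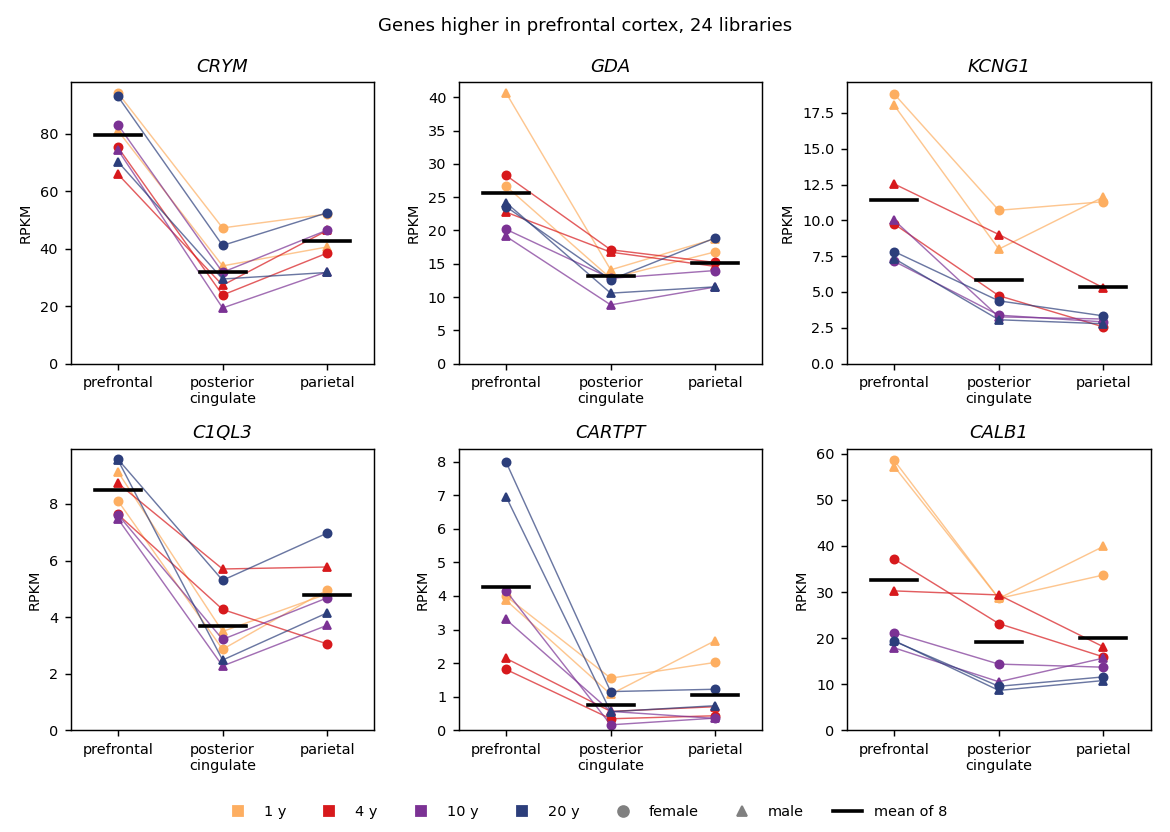
RPKM of 6 genes that were higher in prefrontal cortex, in 24 libraries, with areas on the x axis and RPKM from 0 on the y axis. Lines join the 3 libraries of an animal set, color marks age, the symbol marks sex and black bars are means of 8. For CRYM, GDA and C1QL3 all 8 prefrontal libraries lie above the other 16, and CALB1 falls with age in all 3 areas.

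Of 28 genes of retinoid and thyroid hormone signalling 23 were tested, and 13 were higher and none lower, against 41.2% and 5.68% of all genes. Their median was 0.20, and under median-ratio scaling 7 were higher (15.7% of all genes) with a median of 0.07. RBP4, the carrier of vitamin A, had a prefrontal median of 72.4 RPKM (63.5 to 86.7) beside 59.3 and 39.0. Its difference was 0.59 ± 0.09 (adjusted p = 2.1e-05), and it was 0.31 against the posterior cingulate and 0.86 against the parietal cortex. The thyroid hormone receptors THRB and THRA had 0.53 and 0.43, and the retinoic acid receptor RARB had 0.30, from 0.53 against the posterior cingulate and 0.07 against the parietal cortex, of which the second did not pass. CBLN2, a synapse organizer under retinoic acid control in the primate frontal lobe, had 0.38, from -0.02 against the posterior cingulate, which did not pass, and 0.77 against the parietal cortex. MEIS2, a retinoid-responsive factor of frontal cortex development, had 0.20 and did not pass under median-ratio scaling. The synthesis enzyme ALDH1A1 (0.01) and the receptors RARA (0.10) and RXRA (0.10) did not pass.

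Of 24 tested factors of cortical area patterning 14 were higher and none lower, against 41.2% and 5.68% of all genes, with a median of 0.23. Under median-ratio scaling 7 were higher and 1 lower, against 15.7% and 15.4%. CDH8, a cadherin that marks frontal cortex in rodents, lay between 7.91 and 12.8 RPKM in prefrontal libraries (median 9.25) beside medians of 4.73 and 6.63, a difference of 0.70 ± 0.08 (adjusted p = 8.5e-07). NR2F1, a nuclear receptor that in mice promotes caudal area identity, was also higher in prefrontal cortex, with 49.1 RPKM (38.6 to 55.5) beside 31.0 and 35.3 (0.54 ± 0.06, adjusted p = 4.5e-07). The ephrin receptor EPHA4 had 0.54, the factor BHLHE22 0.50 and the frontal LIM protein LMO4 0.45. ETV5, a target of fibroblast growth factor signalling, had 0.45. EMX2 and PAX6, which pattern the mouse cortex in opposite gradients, had 0.14 and 0.13. PAX6 did not pass, and EMX2 did not under median-ratio scaling or against the posterior cingulate alone (0.03).

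Receptor lists had medians of 0.23 to 0.26, beside 0.11 for all genes, and their counts stand against 41.2% higher and 5.68% lower among all genes (15.7% and 15.4% under median-ratio scaling). Of 12 tested NMDA and AMPA receptor genes 11 were higher and none lower (5 and none under median-ratio scaling), with GRIN2A, a regulatory NMDA receptor subunit, at 0.52 ± 0.07 (adjusted p = 4.7e-06) and the AMPA receptor subunit GRIA1 at 0.48. Among 10 kainate and metabotropic glutamate receptors 8 were higher and none lower (6 and none), led by GRM5 (0.47). Of 13 GABA receptor genes 9 were higher and 1 lower (4 and 1). The GABA-B receptor GABBR2 (0.56) and the extrasynaptic subunit GABRA5 (0.53) were highest. Of 14 serotonin, noradrenaline and acetylcholine receptors 11 were higher and none lower (5 and none), with the muscarinic receptor CHRM1 at 0.45 and the noradrenaline receptor ADRA2C at 0.41.

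Dopamine genes were partly measurable: of 17 members 9 were tested, and DRD2 to DRD5, TH, DDC, SLC6A3 and PDE10A lay below the filter. Of the 9, 7 were higher and none lower (3 and 1 under median-ratio scaling). The shares of all genes were 41.2% and 5.68% (15.7% and 15.4% under that scaling). MAOB and MAOA, which break down monoamines, had 0.42 and 0.40, and the receptor DRD1 had 0.25 at a prefrontal mean of 2.02 RPKM, from 0.45 against the posterior cingulate and 0.06 against the parietal cortex, of which the second did not pass. Of 21 tested neuropeptide and peptide receptor genes 13 were higher and none lower (10 and 1), beside the same shares of all genes. CARTPT is in this count, but it entered the test through the prefrontal libraries and is no support for the list. OPRL1, at 1 RPKM in 7 prefrontal and 7 other libraries, was tested in the same way. Other higher members included the somatostatin receptors SSTR1 and SSTR2 (0.55 and 0.54) and the opioid precursors PENK and PDYN (0.52 and 0.48).

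At the synapse, 11 of 17 tested vesicle release genes were higher and none lower, against 41.2% and 5.68% of all genes (8 and 1 under median-ratio scaling), with a median of 0.31. STX1A, the plasma membrane SNARE syntaxin, had a prefrontal median of 369 RPKM (287 to 473) beside 210 and 194, a difference of 0.69 ± 0.07 (adjusted p = 1.7e-07). SYN2 and SYN1, which tether vesicles, had 0.63 and 0.50, while SNAP25, CPLX1 and CPLX2, at 451 to 632 RPKM in prefrontal cortex, lay between -0.05 and -0.01 and did not pass. Of 18 postsynaptic genes 14 were higher and none lower (6 and none), with a median of 0.25 and BAIAP2 at 0.62. NCAN, the brain proteoglycan neurocan, had 10.7 RPKM (9.68 to 14.4) beside 6.10 and 5.96, a difference of 0.72 ± 0.06 (adjusted p = 8.6e-08). It led 16 tested matrix genes, of which 6 were higher, a smaller share than among all genes, and 3 lower (2 and 3), with a median of 0.14.

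In prefrontal libraries the 8 mitochondrially encoded genes with a row by name made up 9.08% to 13.6% of RPKM. Their share was 12.3% to 16.1% in posterior cingulate and 11.0% to 15.1% in parietal libraries. Another 5 listed genes, COX1 and CYTB among them, had no row by name, so these shares are partial. Of the 8 tested, 7 were lower and 1, ND6, was higher by 0.24, and their median was -0.25. Under median-ratio scaling 7 were lower and none higher, and under quantile normalization 3 were lower and 1 higher. Of 18 cholesterol synthesis genes 12 were higher and 2 lower, and under median-ratio scaling 5 were higher and 5 lower. Immediate early genes, which follow neuronal activity, were higher for 7 of 10 and lower for none (6 and none), led by BDNF (0.52). The list counts of this paragraph stand against 41.2% higher and 5.68% lower among all genes (15.7% and 15.4% under median-ratio scaling).

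A further group of called genes was higher and rested on fewer animal sets. These were MYOC (myocilin, a secreted glycoprotein), SFRP2 (a secreted WNT inhibitor), NOV and IGFBP5 (secreted growth factor modulators), CRABP2 (a retinoic acid carrier) and a gene that the table describes as complement factor B. MYOC lay between 4.05 and 37.3 RPKM in prefrontal libraries (median 26.8) beside 1.27 to 28.9 (median 3.70) and 1.29 to 11.8 (median 5.37). Its difference was 1.67 ± 0.31 (adjusted p = 0.00023). The ranges overlapped. The 1-year male set stood at -0.09, and in the 4-year male set the posterior cingulate library reached 28.9 RPKM beside 28.1 in prefrontal cortex. SFRP2 had 1.44 ± 0.30 (adjusted p = 0.00061), NOV 1.21 ± 0.21, CRABP2 1.15 ± 0.25 and IGFBP5 1.06 ± 0.16.

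Some markers of the meninges were higher as well, and others were not. PTGDS, a prostaglandin synthase of meninges that oligodendrocytes also make, had a prefrontal median of 668 RPKM (275 to 925) beside 322 (197 to 423) and 415 (283 to 716), a difference of 0.70 ± 0.14 (adjusted p = 0.00060). SLC22A6, an anion transporter, had 0.70 ± 0.17, and the collagen COL1A1 had 0.38, whereas the matrix proteins DCN and LUM had 0.09 and 0.07 and did not pass. In all 3 of 5 tested meningeal genes were higher and none lower (2 and none under median-ratio scaling), OGN was listed at 0 and COL3A1 lay below the filter. Among all genes 41.2% were higher and 5.68% lower (15.7% and 15.4% under that scaling). The listed meningeal genes, COL3A1 included, summed to 289 to 957 RPKM in prefrontal libraries. The sum was 206 to 451 in posterior cingulate and 302 to 744 in parietal libraries, and PTGDS made up most of it. The 1-year male set, where MYOC was not higher in prefrontal cortex, was also the set in which PTGDS (-0.33), SLC22A6 (-0.31), COL1A1 (-0.50), DCN (-0.88) and LUM (-0.52) were lower there. That set was not set apart by meningeal genes alone. Its mean of the other areas over the prefrontal sum was the highest of all sets for meninges (1.34) and for other lists. These were astrocytes (1.75), microglia (1.36), endothelium and pericytes (1.28), blood (2.39) and choroid plexus and ependyma (2.36). For oligodendrocytes and their precursors it was not the highest. The part of meningeal tissue in these differences was not tested.

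**Figure D4:**
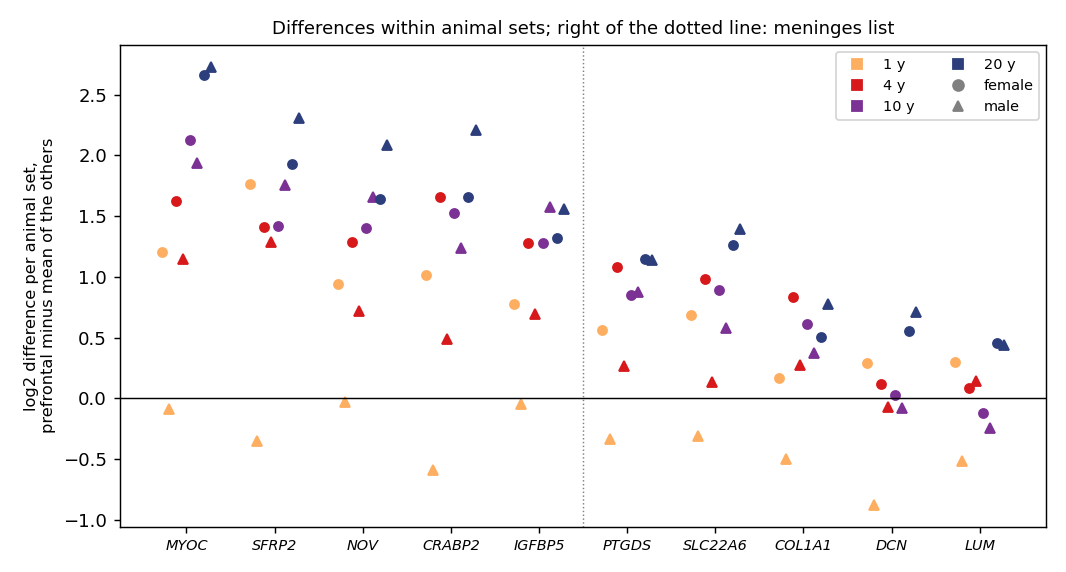
Log2 differences within each of the 8 animal sets (y axis, prefrontal minus the mean of the other 2 areas) for 5 called genes and, right of the dotted line, the 5 tested meningeal genes. Color marks age and the symbol sex. The 1-year male set lies lowest for all 10 genes, at -0.09 for MYOC.

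Markers of other cell types differed less. Their counts stand against 41.2% higher and 5.68% lower among all genes (15.7% and 15.4% under median-ratio scaling). Of 14 astrocyte genes none was higher and 2 were lower (none and 5 under median-ratio scaling), the calcium-binding protein S100B (-0.35) and the glycolytic enzyme ALDOC (-0.17). GFAP, the astrocyte filament protein, had 0.03. Of 6 microglial genes 1 was higher and none lower (none and 1), and of 11 endothelial and pericyte genes none was higher and 2 were lower (none and 3). None of the 3 tested blood genes passed, HBB among them (-0.08), and neither did the 2 tested genes of choroid plexus and ependyma.

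The 2 areas behind the prefrontal cortex also differed from each other. Against the posterior cingulate 5938 genes passed (51.3%) and 50 were called (0.432%). Against the parietal cortex 3537 passed (30.5%) and 18 were called (0.155%), while posterior cingulate minus parietal gave 2739 (23.6%) and 11 (0.0950%). These contrasts share libraries, so their values are given side by side. Myelin genes were lower against both areas, 21 of 23 against the posterior cingulate (5.41% of all genes) and 22 of 23 against the parietal cortex (5.89%). Between those areas 1 of 23 passed, as lower in the posterior cingulate (19.4% of all genes). By contrast, 5 of the genes highest against the posterior cingulate were lower against the parietal cortex. HOXA10, a HOX factor of the posterior body axis, had means of 22.8 RPKM in prefrontal, 6.84 in posterior cingulate and 31.8 in parietal cortex (1.51 ± 0.17 and -0.55 ± 0.17, adjusted p = 1.4e-06 and 0.019). SPNS1 had 1.40 and -0.63, ELMSAN1 1.40 and -0.61, KLHL34 1.34 and -0.55, and the factor IRX2 1.22 and -0.58, and for all 5 the posterior cingulate stood 1.80 to 2.06 below the parietal cortex. In each of the 3 areas the 10-year female library was the highest for all 5 genes. Shared reads or annotation behind this common pattern were not tested, since neither reads nor a genome build were used here, so the values need not be those of 5 separate genes. Against the parietal cortex the homeobox factor MEIS3 (0.88), the phospholipase PLCH2 (0.88) and PLPPR3 (0.86) were among the highest. SVIP, an inhibitor of protein degradation at the endoplasmic reticulum, was lower by 0.93 against the posterior cingulate (log2 -0.93).

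Many genes had an age slope within the prefrontal cortex. Over its 8 libraries 2154 genes passed (18.6%), 1695 with a positive slope per doubling of age (14.6%) and 459 with a negative slope (3.96%). Most of this rested on the youngest sets: 581 passed without the 1-year female set, 482 without the 1-year male set and 4 without both. Of the 23 myelin genes 17 rose with age and none fell, with a median slope of 0.24 beside 0.03 for all genes. MBP had prefrontal means of 99.8, 382, 463 and 336 RPKM at 1, 4, 10 and 20 years, a slope of 0.43 ± 0.11 (adjusted p = 0.022), and without the 1-year sets the slope was -0.05. In the posterior cingulate its means were 398, 659, 864 and 1204 RPKM and in the parietal cortex 282, 873, 807 and 1103. The prefrontal slope of MBP differed from the mean slope of the other areas by 0.04 ± 0.09 (adjusted p = 0.94), and none of the 23 myelin genes passed that test.

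**Figure D5:**
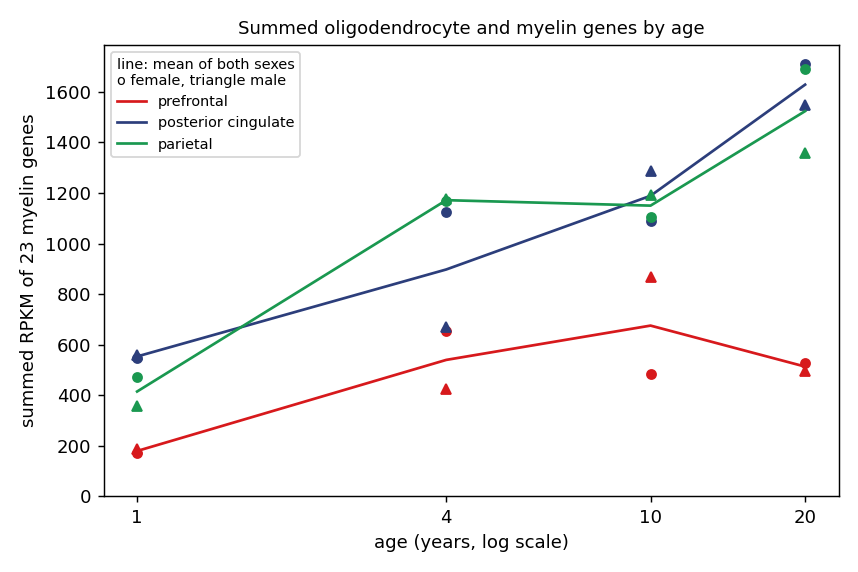
Summed RPKM of the listed oligodendrocyte and myelin genes (y axis, from 0) against age in years (x axis, log scale) in 3 areas. There is 1 point per library, and lines run through the mean of both sexes. The sum holds the 23 tested genes and, at 0.74 RPKM or less each, the untested ENPP6 and TSPAN2. Prefrontal means run from 179 at 1 year to 675 at 10 and 513 at 20 years, and posterior cingulate means from 553 at 1 year to 1629 at 20 years.

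MYOC (0.61 ± 0.09), the cytokine LTB (0.60), the potassium channel subunit KCNS1 (0.48), NKX6-2 (0.48) and SFRP2 (0.47) had the steepest positive prefrontal slopes among genes that met the naming rule. At the other end were FAM19A1, a secreted neuronal protein (-0.44 ± 0.03, adjusted p = 0.00025), MEIS3 (-0.42), ARHGAP10 (-0.42), CALB1 (-0.38 ± 0.04, adjusted p = 0.00045) and the activity-regulated gene ARC (-0.37). CALB1 had prefrontal means of 57.9, 33.7, 19.5 and 19.4 RPKM at 1, 4, 10 and 20 years. Its slopes in the posterior cingulate and parietal cortex were -0.38 and -0.37, and the prefrontal slope differed from their mean by -0.01 ± 0.06 (adjusted p = 0.98). None of these 10 slopes passed without the 1-year sets, and those of LTB and SFRP2 turned negative (-0.080 and -0.014).

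Slopes that differed between the prefrontal cortex and the mean of the other areas were few, with 9 genes passing (0.0777%). DCLK1, a microtubule-binding kinase of neurons, had prefrontal means of 36.4, 28.5, 25.5 and 22.6 RPKM at the 4 ages, beside 23.2, 22.9, 22.4 and 32.3 in the posterior cingulate and 26.9, 28.5, 26.9 and 30.2 in the parietal cortex. The slopes differed by -0.21 ± 0.04 (adjusted p = 0.037). SCARNA18, a small Cajal body RNA, had 23.0, 35.9, 41.3 and 55.1 RPKM in prefrontal cortex beside 21.2, 27.4, 25.6 and 26.4 in the posterior cingulate, a slope difference of 0.20 ± 0.04 (adjusted p = 0.037). The libraries were of polyadenylated RNA, and whether the reads on this row came from the small RNA itself was not tested. CARTPT had prefrontal means of 3.93, 1.98, 3.72 and 7.48 RPKM and its means per age were at or below 2.35 in the other areas (0.32 ± 0.05, adjusted p = 0.014). The count ran from 0 to 16 when single animal sets were left out, with 0 without the 1-year female set and 0 without the 20-year male set.

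The difference between males and females did not differ between the prefrontal cortex and the other areas for any gene at the threshold in limma, and 250 genes lay at an unadjusted p under 0.05. Median-ratio scaling and quantile normalization also gave 0. Within the prefrontal cortex 1 gene passed between the sexes (0.00863%). It carries no name and was listed at 0 in the 4 female prefrontal libraries.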

How the data were processed

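Polyadenylated RNA of 24 libraries was measured by directional RNA sequencing. The authors deposited RPKM values for 26654 genes as a single table, and TopHat2, Cufflinks 2.2 and edgeR are listed, per the submitters' processing notes, without their roles. The sources used here give neither genome build nor counting of reads, and the table was used without read counts, so depth and counting error are unknown. RPKM depends on the transcript model and on what the highest genes take of the total, which differed between areas. All 64 sample columns were mapped to a sample (0 unmapped).

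Values were taken as log2(RPKM + 1), which understates the change of low genes. Genes with at least 1 RPKM in at least 8 of the 24 libraries were kept, 11585 in all, of which 27 held a 0 in some library. Of these, 988 had no name. Some listed genes reached 1 RPKM in fewer than 8 of the other 16 libraries, so they were tested only with the prefrontal libraries counted. Among them were CARTPT, GLRA3, DLX2 (8 prefrontal and 7 other libraries), HTR6 (7 and 6) and OPRL1 (7 and 7). Their place in a list count is no support for that list. Names came from the table, with 552 filled from an annotation table of gene identifiers, and where a listed name stood on several rows (4 names) the row with the highest mean was used. Region contrasts were fitted with limma 3.58.1 (intensity trend, R 4.3.3) on 24 libraries, blocked by animal set, and slope or sex differences between areas were fitted in the same way. Age (per doubling) and sex within prefrontal cortex were fitted to its 8 libraries. Benjamini-Hochberg adjustment ran over 11585 genes, and called genes also needed a difference of at least 1. In simulated data of 11585 genes the region fit recovered 100% of changes of 1 log2 and 99% of changes of 0.5. Of the 209 genes that passed there, 10 were unchanged. The simulation held no shift of the typical gene, so it cannot speak to the counts that changed with scaling.

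The pairing comes from the age and sex in the labels. Deviations from the area means were correlated between libraries. All 24 pairs of libraries of an animal set from different areas correlated above 0.1 (lowest 0.24, mean 0.53). The mean for different sets was -0.071. Libraries of the same age and sex can correlate without sharing animals, so these values cannot show a pairing by animal. No 2 libraries were identical (highest correlation 0.993).

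The genes named are, for each prefrontal contrast, up to 15 per direction with the largest difference among genes that passed, had a name, no 0, a mean of at least 5 RPKM and a single direction in 8 animal sets. For age and sex they are up to 5 per direction, and members of the 29 gene lists could be named in addition. Called genes and genes with separated ranges outside that rule were chosen after their values were seen. The members, lists and rule were chosen with earlier results of these data known. Alternatives were another pseudocount (0.1), no filter or a mean of at least 5 RPKM, median-ratio scaling, quantile normalization, no block, paired differences and leaving out animal sets. Some genes that met the rule or a list are not reported here. Figures were drawn with matplotlib.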

Additional observations from a re-analysis of the deposited data

Results flagged for a closer look

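Values were checked for a single animal set or library far from the other 7, by the gap to its neighbour over the whole range (Dixon's ratio above its 95% critical value). This was done on the 8 within-set differences of 140 named genes and on 57 groups of 8 libraries, and chance alone would mark about 1 in 20 of such groups. The 10 that were marked come first.

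The 1-year male set stood apart for the difference of SFRP2 (-0.35, all other sets above 1), of PAX6 (-0.44) and of HBB (-1.13), a hemoglobin gene. Without the 1-year male set the difference of SFRP2 was 1.70. For NR2F1 the 1-year female set had the smallest difference (0.16).

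In the posterior cingulate the 4-year male library had the highest MYOC (28.9 RPKM) and CDH8 (7.20 RPKM). In the prefrontal cortex CHRNB2 was highest in the 4-year female library (5.56 RPKM) and NCAN in the 1-year female library (14.4 RPKM). The 10-year female parietal library had the highest PTGDS (716 RPKM) and with it the highest parietal sum of meningeal genes (744 RPKM).

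Age slopes that differed between prefrontal cortex and the other areas were found for 6 named genes, by the limma test of the difference itself. Besides DCLK1 (-0.21), SCARNA18 (0.20) and CARTPT (0.32), described above, these were HSD11B1, ASS1 and PLCL1, named here after their values were seen. HSD11B1, which makes active cortisol, rose from 0.06 RPKM at 1 year to 5.18 at 20 years in the posterior cingulate and to 3.89 in the parietal cortex, beside 0.10 and 1.03 in prefrontal cortex (slope difference -0.34). It reached 1 RPKM in 2 prefrontal and 8 other libraries, so it was tested through the areas where it was high. Its prefrontal mean was 0.56 RPKM, a level at which log2(RPKM + 1) understates change. ASS1, argininosuccinate synthase, had 0.94 and 3.23 RPKM in prefrontal cortex at 1 and 20 years beside 0.98 and 1.26 in the posterior cingulate (0.22). PLCL1, a phospholipase-related protein, had 4.29 and 2.96 RPKM beside 2.40 and 3.54 (-0.18).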

How the results depend on the processing

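Without the replicate block, the animal set left out of the fit, 2887 genes passed in the main contrast, 3500 against posterior cingulate, 998 against parietal, 825 between those areas and 0 for the slope difference. As 8 paired differences, also a replicate block, the slope difference gave 14. With a mean of at least 5 RPKM, fewer genes tested, the counts were 3416, 3590 against posterior cingulate, 1620 between the other areas, 4 slope differences, 0 sex differences and 14 of 15 myelin genes. Median-ratio scaling gave 3599, 3831 against posterior cingulate and 4 slope differences, and quantile normalization gave 3871 against posterior cingulate. A pseudocount of 0.1 raised called genes to 58, 105 and 58 in the 3 prefrontal contrasts and 38 between the other areas, and left 1 slope difference. No filter left 0 slope differences and 599 prefrontal age slopes. Without the 1-year sets, chosen after seeing the data, called genes numbered 35 in the main contrast and 38 against parietal, with 3 slope differences, 4 prefrontal age slopes and 2 sex differences, and the slopes of LTB (-0.080) and SFRP2 (-0.014) reversed.

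Leaving out each animal set gave 4446 to 5551 genes in the main contrast (16 to 33 called), 5108 to 6027 against posterior cingulate (39 to 59) and 2391 to 3777 against parietal (16 to 30, with 30 without the 1-year male set). It gave 1725 to 3172 between the other areas (10 to 14), 482 to 2169 prefrontal age slopes, 0 to 16 slope differences, 1 to 2 sex differences within prefrontal cortex and 22 to 23 myelin genes. The 2 lowest counts between the other areas came without the 10-year female set (1793) and the 10-year male set (1725). The cause of these changes was not tested where fewer genes or sets do not give it.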

Other observations

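Among growth factor and WNT pathway genes, 17 were tested and 7 were higher in prefrontal cortex and 1 lower (5 and 5 under median-ratio scaling). This and the next counts stand against 41.2% higher and 5.68% lower among all genes (15.7% and 15.4% under that scaling). Beside SFRP2, the ligands BMP4 (0.37) and WNT10B (0.30) and the BMP inhibitor CHRDL1 (0.27) were higher, and FGF9 was lower (-0.20). Of 8 heat shock genes 1 was higher and 3 lower (none and 4 under median-ratio scaling), with the small heat shock protein CRYAB, which oligodendrocytes and astrocytes make, at -0.44. SLC17A6, the glutamate transporter of subcortical neurons, was the 1 lower member among 8 genes of excitatory neurons (-0.27), of which 6 were higher (3 and 1 under median-ratio scaling). Its difference was -0.68 against the parietal cortex and 0.14 against the posterior cingulate, of which the second did not pass.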
